A study of Mus musculus with 10 samples.

Results

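The genes described here are 7 members of the MHC class II antigen presentation pathway: H2-Aa, H2-Ab1, H2-Eb1, Cd74, Ciita, H2-DMa and H2-DMb1. They were chosen by name among 22181 rows of genes on MoGene 2.0 ST arrays, and each had 1 probe set. For 6 of them the platform annotation gave that gene alone. The only probe set listing Cd74 also listed the microRNA Mir5107, so it is called Cd74/Mir5107 here and its signal is not assigned to either gene. Values are log2 intensities, on which a difference of 1 is a 2-fold difference.

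In the study, cells of the intestinal crypt that express Flattop, which Cfap126 encodes, per the labels, were set against stem cells of the intestine that carry much Lgr5 and GFP. The 4 Flattop arrays came from mice carrying FltpT2AiCre and Gt(ROSA)26mTmG on a mixed C57BL/6J, CD1 and 129/SvJ background. The 6 Lgr5-high arrays came from C57BL/6J mice carrying Lgr5-EGFP-IRES-creERT2. All mice were 3 to 6 months old and no other treatment is labelled. In the first model Cre is placed at the Flattop locus and switches a membrane reporter irreversibly, and in the other EGFP and an inducible Cre are placed at Lgr5. Group, genotype and strain coincide and cannot be told apart. The labels do not say that replicates are separate animals, so the tests measure only the spread between these arrays, which may be technical.

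MHC class II molecules are pairs of an alpha and a beta chain that display peptides from endosomes to CD4 T cells. The invariant chain, encoded by Cd74, guides the new pair and blocks its groove, and the DM molecule exchanges the blocking fragment for peptide. Ciita is the coactivator that turns these genes on through factors bound at conserved X and Y boxes of their promoters, and interferon gamma induces it in cells that do not present antigen by profession. Intestinal epithelium, stem cells included, is known to carry class II, as are dendritic cells, macrophages and B cells. H2 genes are highly polymorphic between mouse strains, and the match of the probes to the alleles of the mixed background was not tested.

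Promoter stretches are shown because the genes of the class II chains, the invariant chain and DM are known to share X and Y boxes, through which Ciita acts. The RefSeq promoters of GRCm38.p6 each run from 250 bases before an annotated start of a gene to 50 bases after it. Among the members, H2-Aa, H2-Eb1, H2-DMa and H2-DMb1 had an entry, and H2-DMa had 2. H2-Ab1 and Ciita had none in the table, and that of Cd74 is not shown. Both strands were searched for a Y box core, TGATTGG, for an X box core, AACNGATG, and for the cyclic AMP response element, TGACGTCA, which the X2 part of the X box resembles. The letters were settled with these promoters in view. Motifs are in capitals below. Each line reads 5′ to 3′ on the strand of its gene, and H2-Eb2 and H2-DMb2, the paralogs of H2-Eb1 and H2-DMb1, are shown beside the members.
H2-Aa, chr17:34287859-34287905, minus strand: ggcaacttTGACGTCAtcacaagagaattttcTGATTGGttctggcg
H2-Eb1, chr17:34305770-34305820, plus strand: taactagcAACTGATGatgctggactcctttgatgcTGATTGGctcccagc
H2-DMb1, chr17:34153091-34153142, plus strand: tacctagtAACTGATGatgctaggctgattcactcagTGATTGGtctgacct
H2-Eb2, chr17:34325537-34325587, plus strand: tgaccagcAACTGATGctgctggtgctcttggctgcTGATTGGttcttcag
H2-DMb2, chr17:34145120-34145171, plus strand: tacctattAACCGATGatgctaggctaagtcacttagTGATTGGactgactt

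The Y box core lay 50 bases before the start of H2-Aa, 61 before that of H2-Eb1 and 63 before that of H2-DMb1. In H2-Eb1 the X box core began 28 bases upstream of the Y box core, and in H2-DMb1 29 bases upstream. H2-Aa held the cyclic AMP response element 74 bases before its start in place of the spelled X box core. Neither core was found in either H2-DMa window, chr17:34122582-34122881 and chr17:34125268-34125567. Both windows lie inside the listed span of the gene and do not cover its start at 34119693. The absence says only that these letters are not in those windows. Of 32851 promoters in the table, 7.82% held the Y box core, 2.32% the X box core, 1.79% the response element and 0.186% both cores. H2-Eb2 and H2-DMb2 also held both, with 28 and 29 bases between their starts, and the promoters of H2-Oa and H2-Ob held the Y box core, 45 and 59 bases before the start.

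No member passed the test between Flattop and Lgr5-high arrays. All 7 differences lay below 0, with a median of -0.52. Over all genes the median difference was -0.06, and 61.5% of genes had a negative one. In limma with Benjamini-Hochberg adjustment over 22181 genes, 0 of 7 members passed an adjusted p of 0.05 in either direction, where 203 genes (0.915%) passed, 0.902% as higher and 0.0135% as lower in Flattop. At an unadjusted p under 0.05, 1 of 7 members was lower, H2-Ab1, and 0 were higher, against 3.8% of all genes lower and 5.97% higher. The groups overlapped for each of the 7 members, whereas they did not overlap in 2.98% of all genes.

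**Figure D1:**
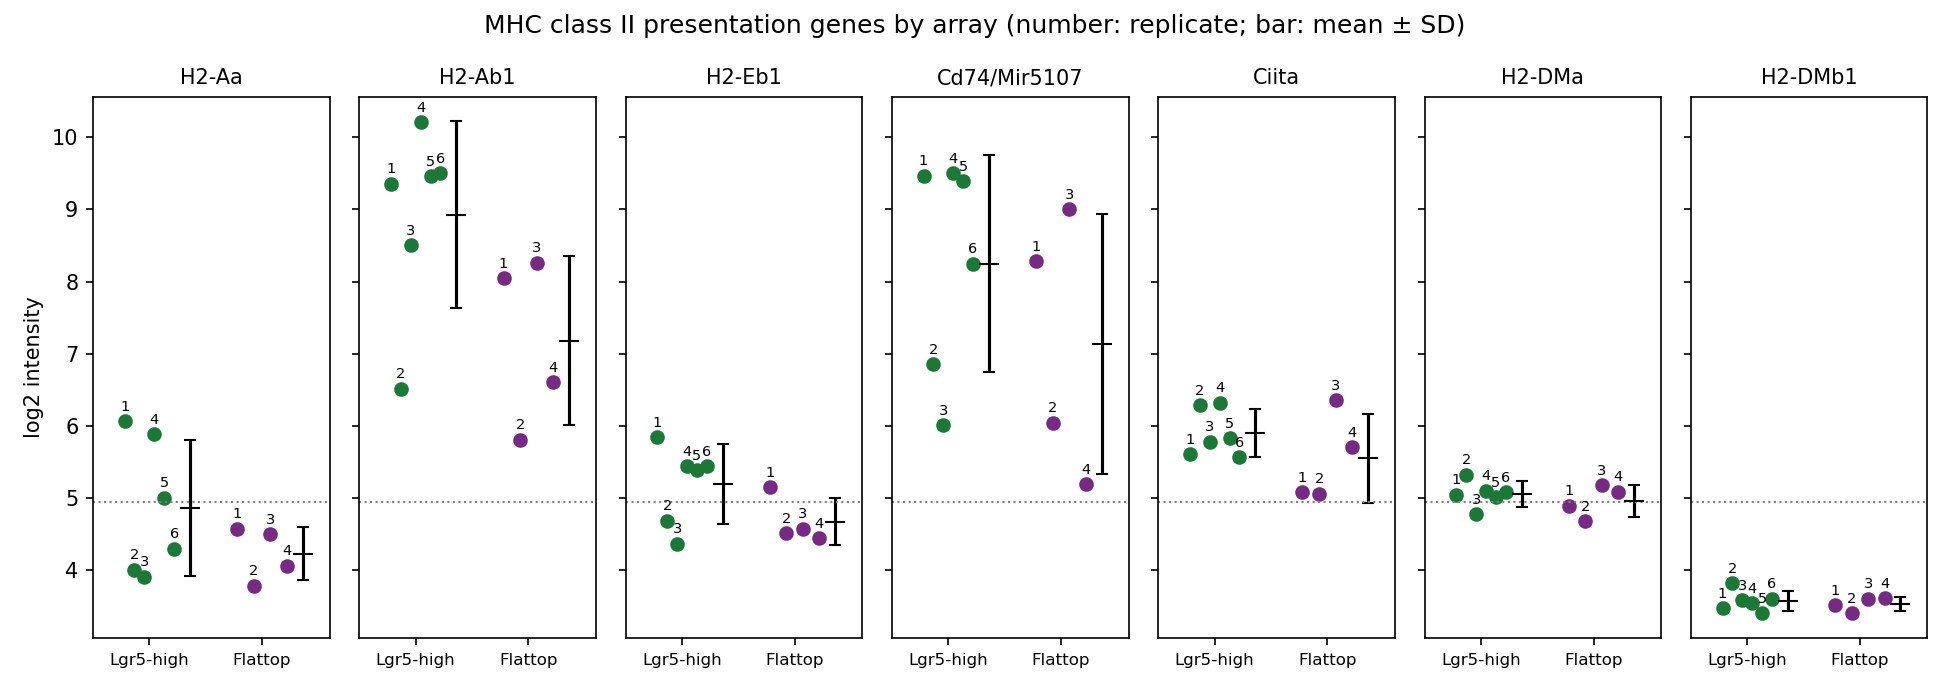
Log2 intensity of each class II member in 6 Lgr5-high arrays (green) and 4 Flattop arrays (purple), numbered by replicate, with the mean ± SD as black bars and the median of all gene values (4.94) as a dotted line. H2-Ab1 and Cd74/Mir5107 range over more than 4 log2 units with overlapping groups, whereas the H2-DMa and H2-DMb1 points lie close together.

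H2-Ab1 (Entrez gene 14961, chr17:34263227-34269418 in GRCm38.p6) encodes the beta chain of the class II molecule that C57BL/6 mice display. The Lgr5-high replicates 1 to 6 read 9.36, 6.51, 8.51, 10.21, 9.47 and 9.50. Flattop replicates 1 to 4 read 8.04, 5.81, 8.26 and 6.60. All Lgr5-high arrays but replicate 2 lay above every Flattop array, and replicate 2 lay below Flattop replicates 1, 3 and 4. The Lgr5-high mean was 8.93 ± 1.30 (SD, n = 6) and the Flattop mean 7.18 ± 1.17 (SD, n = 4). The difference of -1.75 (SE 0.71, 95% interval -3.31 to -0.19) was short of the limma threshold (adjusted p = 0.453). Without Lgr5-high replicate 2 it was -2.23 (adjusted p = 0.135), and without Flattop replicate 2 it was -1.29 (adjusted p = 0.747).

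H2-Aa (Entrez gene 14960, chr17:34282744-34287823) encodes the alpha chain that pairs with the H2-Ab1 product. It read 6.06, 3.999, 3.90, 5.88, 4.999 and 4.29 in Lgr5-high replicates 1 to 6. In Flattop replicates 1 to 4 it read 4.57, 3.78, 4.49 and 4.06. Lgr5-high replicates 1, 4 and 5 lay above every Flattop array, and replicates 2, 3 and 6 lay within the Flattop range. The difference was -0.63 (SE 0.45, 95% interval -1.62 to 0.35, limma adjusted p = 0.675), between 4.22 ± 0.37 (SD, n = 4) and 4.86 ± 0.95 (SD, n = 6). Both means lay under the median of all gene values, 4.94, so the size of the difference is uncertain for want of detection calls.

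H2-Eb1 (Entrez gene 14969, chr17:34305867-34316674) encodes the beta chain of the other class II molecule, I-E. Lgr5-high replicates 1 to 6 read 5.84, 4.68, 4.36, 5.44, 5.38 and 5.44. Flattop replicates 1 to 4 read 5.14, 4.51, 4.57 and 4.44. As for H2-Aa, the Lgr5-high arrays were split, with replicate 2 within the Flattop range, replicate 3 below it and the other 4 above it. The difference was -0.52 (SE 0.28, 95% interval -1.15 to 0.10, adjusted p = 0.596 in limma), from means of 4.67 ± 0.32 (SD, n = 4) and 5.19 ± 0.55 (SD, n = 6). H2-Ea, the alpha chain gene of I-E, which is defective in C57BL/6 mice, read 3.67 to 4.28 in Flattop and 3.94 to 4.37 in Lgr5-high arrays, a difference of -0.12 (limma adjusted p = 0.812).

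The Cd74/Mir5107 probe set, which lists the invariant chain gene, had the largest SD between arrays of the 7 members in either group. It read 9.47, 6.85, 6.01, 9.50, 9.39 and 8.25 in Lgr5-high replicates 1 to 6. Flattop replicates 1 to 4 read 8.28, 6.04, 9.01 and 5.19. High and low arrays occurred in both groups, and Flattop replicate 3 lay above 3 of the 6 Lgr5-high arrays. The Flattop mean was 7.13 ± 1.81 (SD, n = 4), the Lgr5-high mean 8.25 ± 1.51 (SD, n = 6), and the difference was -1.12 (SE 0.91, 95% interval -3.13 to 0.90, limma adjusted p = 0.711). Leaving out Flattop replicate 4 gave -0.47, and leaving out Flattop replicate 3 gave -1.74.

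Ciita (Entrez gene 12265, chr16:10480014-10531064), the coactivator of the class II promoters, read 5.60, 6.28, 5.77, 6.32, 5.83 and 5.56 in Lgr5-high replicates 1 to 6. Flattop replicates 1 to 4 read 5.07, 5.06, 6.35 and 5.70. Flattop replicates 1 and 2 lay below every Lgr5-high array, and Flattop replicate 3 was the highest of all 10. The difference was -0.35 (SE 0.27, 95% interval -0.95 to 0.25, limma adjusted p = 0.700).

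H2-DMa (Entrez gene 14998, chr17:34119693-34139101) and H2-DMb1 (Entrez gene 14999, chr17:34153191-34160229) encode chains of DM, the molecule that edits the peptide. H2-DMa lay between 4.67 and 5.17 in Flattop and between 4.77 and 5.32 in Lgr5-high arrays, and H2-DMb1 between 3.40 and 3.60 and between 3.40 and 3.81. Their differences were -0.10 (SE 0.14, 95% interval -0.41 to 0.21, limma adjusted p = 0.835) and -0.04 (SE 0.12, 95% interval -0.29 to 0.22, limma adjusted p = 0.926). H2-DMb1 was dimmer than the median of all gene values in each array, and H2-DMb1 and H2-DMb2 are near-identical relatives, so which copy its probes measured is uncertain.

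**Figure D2:**
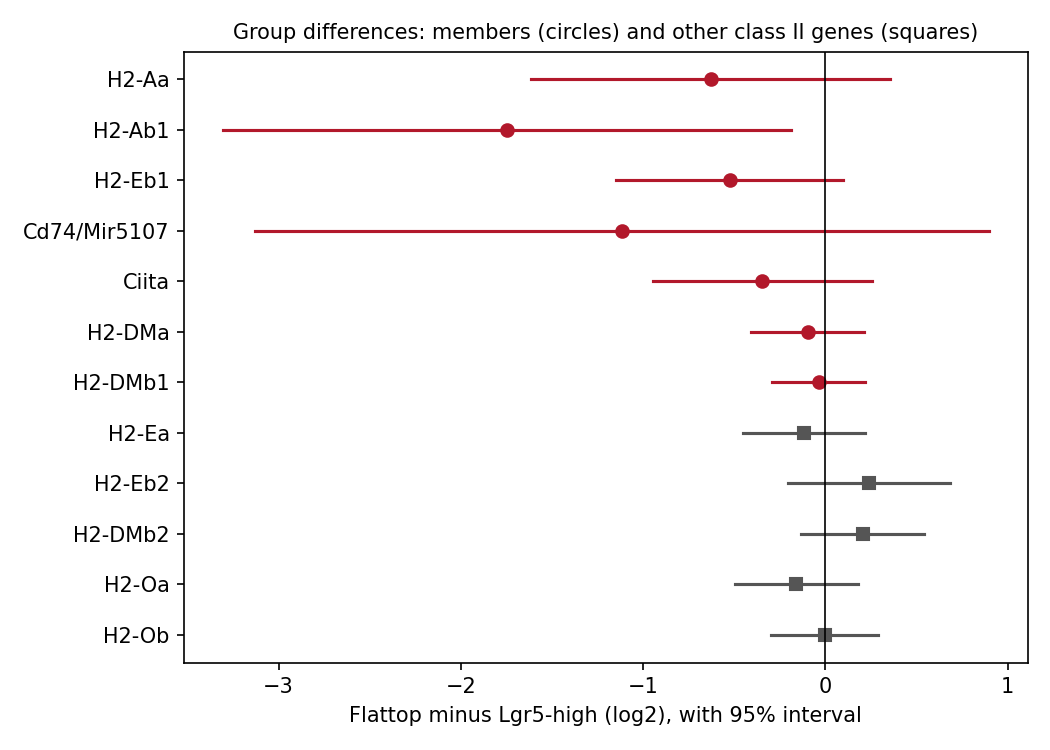
Difference in log2 intensity, Flattop minus Lgr5-high, with the 95% interval of the limma fit, for the 7 members (red circles) and the 5 other measured class II genes (grey squares). H2-Ab1 is the only one of these whose interval, -3.31 to -0.19, leaves out 0, and it does not pass after adjustment (adjusted p = 0.453).

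The chains and the Cd74/Mir5107 probe set shared part of their order of arrays within each group. In Lgr5-high, replicates 2 and 3 were the lowest pair for H2-Aa, H2-Ab1, H2-Eb1 and Cd74/Mir5107 alike. In Flattop, replicates 1 and 3 were the highest pair for each of these 4 and replicates 2 and 4 the lowest pair. For H2-Eb1 the Flattop pairs were close, with replicate 3 at 4.57 and replicate 2 at 4.51. The rest of the order differed: Lgr5-high replicate 6 was next to highest for H2-Ab1 (9.50) but in the lower part for H2-Aa (4.29). Lgr5-high replicate 3, though in the lowest pair, lay above every Flattop array for H2-Ab1 (8.51). The mean of the 4 was 7.68, 5.51, 5.69, 7.76, 7.31 and 6.87 in Lgr5-high replicates 1 to 6 and 6.51, 5.03, 6.58 and 5.07 in Flattop replicates 1 to 4. With each array centred on its group mean, Pearson correlations over the 10 arrays were 0.64 to 0.80 among the 4. Those arrays share the group centring and a normalisation, and the correlations are given as a description.

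Ciita and the DM genes did not follow that order. Centred in the same way, Ciita correlated with the 4 at -0.31 to 0.17, H2-DMa at 0.005 to 0.25 and H2-DMb1 at -0.50 to -0.37, while Ciita and H2-DMa correlated at 0.73. Lgr5-high replicate 2, the lowest Lgr5-high array for H2-Ab1, was the next to highest of the 6 for Ciita (6.28). Flattop replicate 1, which was high for all 4, was low for Ciita (5.07).

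**Figure D3:**
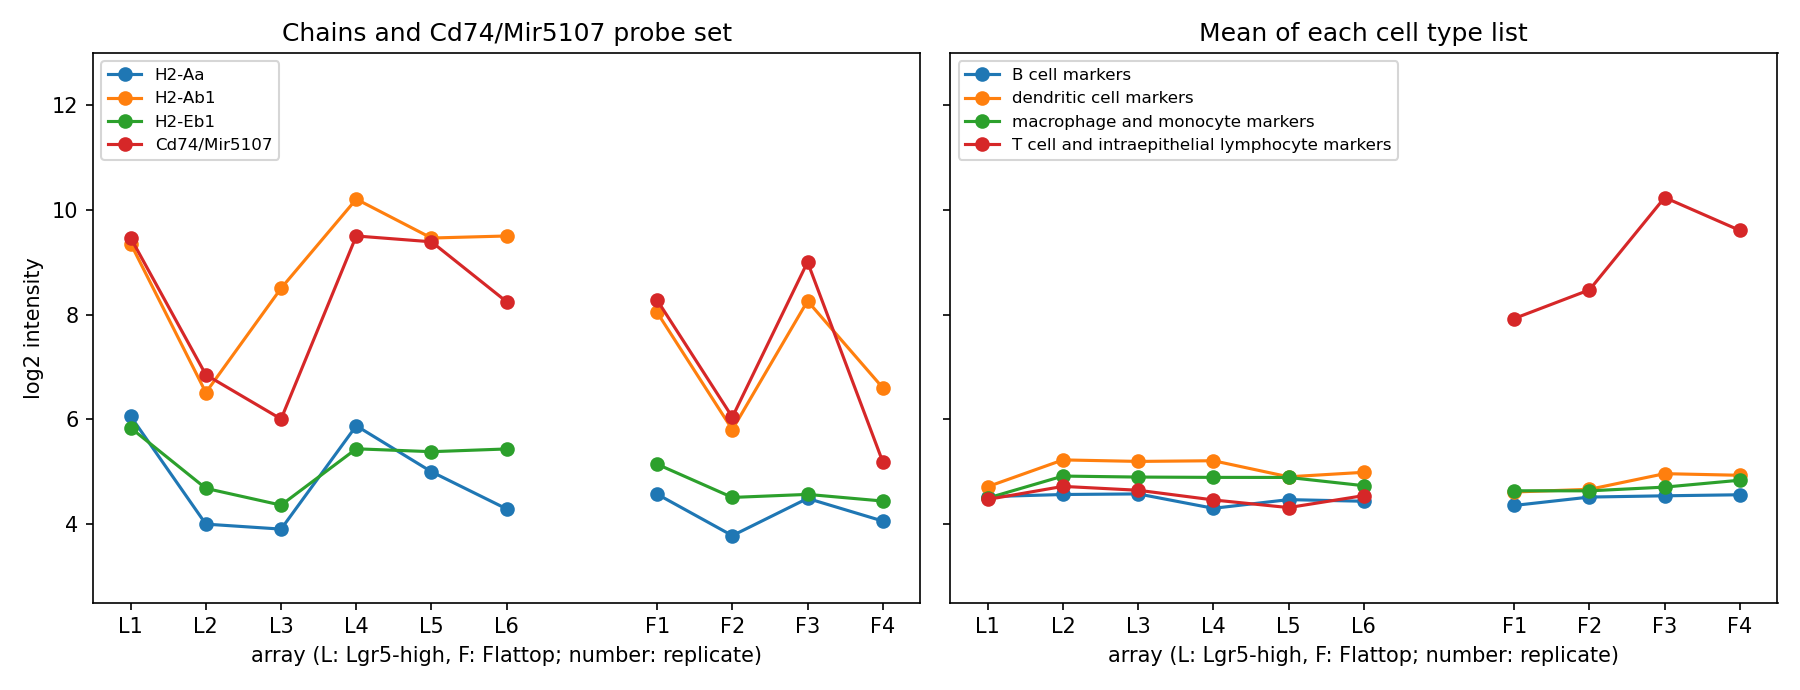
Log2 intensity by array, Lgr5-high (L1 to L6) and Flattop (F1 to F4), for the chains and the Cd74/Mir5107 probe set (left) and for the mean of 4 cell type marker lists (right); lines join arrays of a group for reading only, since replicates have no order. On the left, L2 and L3 are the lowest pair of their group, and F2 and F4 of theirs. On the right, only the T cell list differs clearly by group, at 7.93 to 10.24 in Flattop and 4.32 to 4.72 in Lgr5-high arrays.

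Spread between arrays of a group was large for H2-Ab1 and Cd74/Mir5107 and small for the DM genes. In Lgr5-high the SD was 1.51 for Cd74/Mir5107 and 1.30 for H2-Ab1, against a median of 0.29 over all genes, and 0.807% and 1.35% of genes had an SD at least as large. Among genes whose Lgr5-high mean lay within 0.5 of theirs, these shares were 1.89% and 3.03%. H2-Aa had an SD of 0.95, which 1.97% of genes at its level reached. In Flattop the SD of Cd74/Mir5107 was 1.81, reached by 1.09% of genes at its level, and that of H2-Ab1 was 1.17, reached by 6.15%. H2-DMb1 had an SD of 0.14 in Lgr5-high and 0.10 in Flattop, which 80.4% and 85.7% of genes at its level reached.

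**Figure D4:**
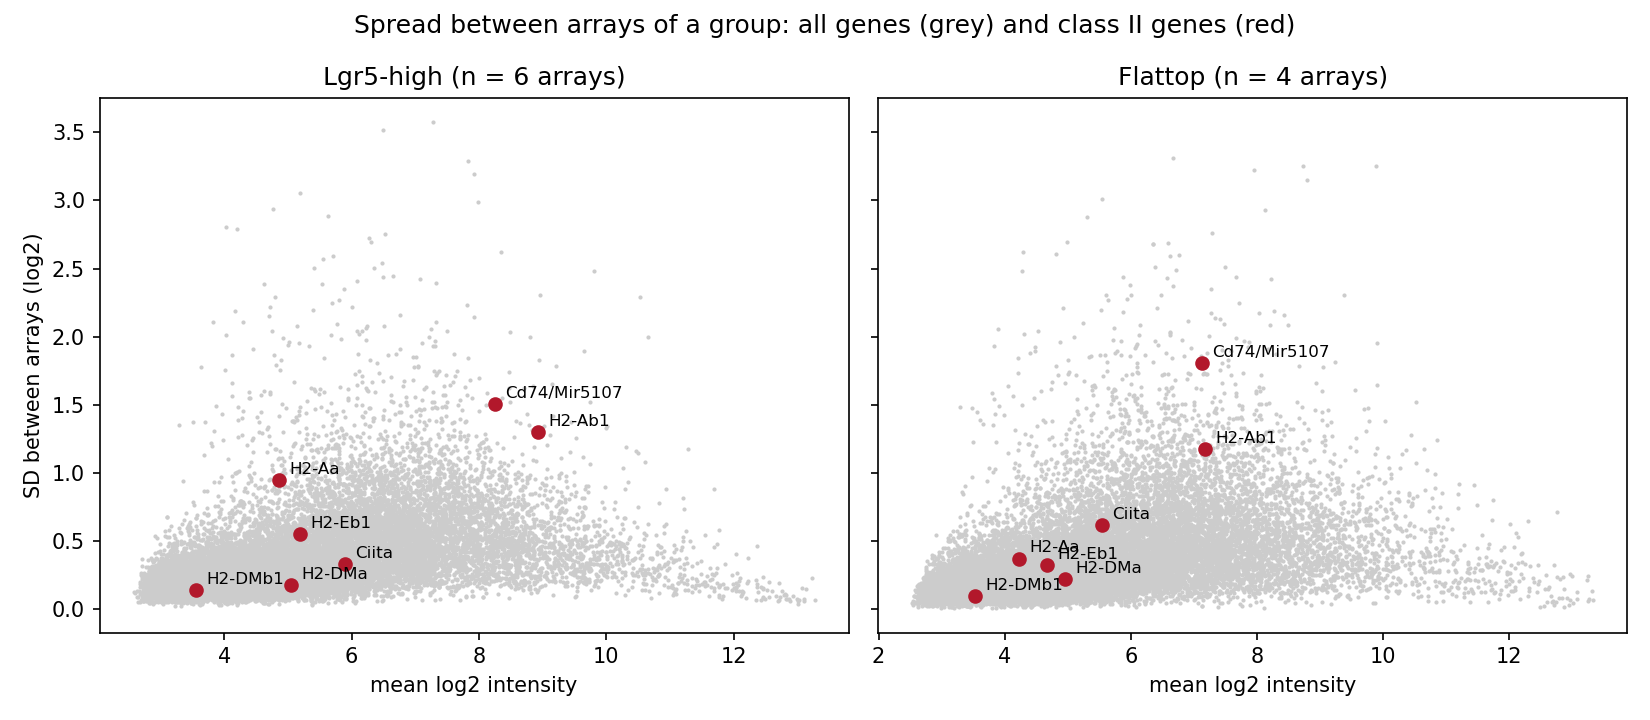
SD between arrays against mean log2 intensity for all genes (grey points) and the 7 class II members (red, named), in 6 Lgr5-high arrays (left) and 4 Flattop arrays (right). Cd74/Mir5107 (SD 1.51 and 1.81) and H2-Ab1 (1.30 and 1.17) lie near the upper edge of genes of their level, and H2-DMb1 (0.14 and 0.10) low.

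The titles number the samples 1 to 8 and 38 to 46, with 2 Flattop and 3 Lgr5-high arrays in each range, and the labels do not say whether these are batches. The H2-Ab1 difference was -1.20 (SE 1.001, limma adjusted p = 0.681) within titles 1 to 8 and -2.29 (SE 0.54, adjusted p = 0.257) within titles 38 to 46. The H2-Eb1 difference was -0.13 (limma adjusted p = 0.923) and -0.92 (adjusted p = 0.142), that of Cd74/Mir5107 was -0.28 (adjusted p = 0.932) and -1.95 (adjusted p = 0.744), and that of H2-Aa -0.48 (adjusted p = 0.798) and -0.78 (adjusted p = 0.767). These 4 were more negative in the later titles, whereas Ciita was at -0.82 (limma adjusted p = 0.483) in titles 1 to 8 and 0.13 (adjusted p = 0.963) in titles 38 to 46. H2-DMa (-0.26 and 0.07) and H2-DMb1 (-0.17 and 0.09) also had differences of opposite sign in the ranges. A limma interaction of group and title range, added after these values were seen, passed for 0 of the 7 members (smallest adjusted p = 0.679 after Benjamini-Hochberg adjustment over all genes).

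Other genes of the pathway did not pass between the groups either. Of the 5 other class II chains and editors that were measured, H2-Ea, H2-Eb2, H2-DMb2, H2-Oa and H2-Ob, 0 passed limma, the median difference was -0.01, and each had both group means under 4.94. The promoter factors, among them the RFX subunits that bind the X box and the NF-Y subunits that bind the Y box, had 0 of 7 passing and a median of 0.49. Genes that process antigen or turn class II over, such as cathepsins, had 0 of 9 passing and a median of 0.38. Costimulatory genes had 0 of 6 passing and a median of -0.09. At an unadjusted p under 0.05, limma gave 0, 1, 2 and 0 higher genes in these lists and 0 lower, where 5.97% of all genes were higher and 3.8% lower. The 3 with an unadjusted p under 0.05, named after their values were seen, were Rfxank, an RFX subunit (0.74, adjusted p = 0.475), and the lysosomal proteases Ctsb (0.89, adjusted p = 0.340) and Ctsd (0.71, adjusted p = 0.285). The Ctsd groups did not overlap, at 9.49 to 9.80 in Flattop and 8.38 to 9.47 in Lgr5-high arrays, as in 2.98% of all genes.

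The interferon gamma axis, which controls Ciita, and MHC class I presentation had no gene past the threshold. In the interferon list 0 of 11 measured genes passed limma, with a median of 0.13 and an unadjusted p under 0.05 for 3 higher genes and 0 lower ones, beside 5.97% higher and 3.8% lower over all genes. Ifng itself read 3.84 to 4.91 in Flattop and 3.93 to 4.50 in Lgr5-high arrays. Jak2, a kinase of the interferon gamma receptor named after its values were seen, was at 1.26 (SE 0.35, limma adjusted p = 0.198). Its groups did not overlap, as in 2.98% of all genes. Of 17 class I presentation genes, 0 passed limma, and an unadjusted p under 0.05 was reached by 2 higher genes and 0 lower ones (the same shares over all genes apply). Positive differences numbered 16 (median 0.30), where 61.5% of all genes had a negative difference. No share among genes of like level was taken. Psmb9, a subunit of the immunoproteasome named after its values were seen, was at 1.31 (SE 0.34, limma adjusted p = 0.149). The Psmb9 groups did not overlap either, at 9.34 to 9.55 in Flattop and 7.44 to 9.26 in Lgr5-high arrays. The light chain of class I, B2m, was at 0.20 (limma adjusted p = 0.684). The difference between the class I and class II lists was not tested.

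Markers of the cells that present antigen by profession did not pass, and most of them were dim in both groups. In bulk samples, fewer cells of a type and less RNA per cell cannot be told apart. None of 9 measured B cell genes passed limma (median -0.08), the list mean was 4.36 to 4.56 in Flattop and 4.30 to 4.58 in Lgr5-high arrays, and 7 of the 9 had both means under 4.94, all but Pax5 and Blnk. The B cell surface protein Ms4a1 read at most 3.57 in Flattop and 3.78 in Lgr5-high arrays, and the B cell receptor component Cd79a at most 4.38 and 5.09. Of 9 dendritic cell genes 0 passed (median -0.19, list mean 4.61 to 4.96 and 4.72 to 5.23), and 8 of the 9 differences were negative. The exception was the integrin Itgax, at 4.14 to 5.74 in Flattop and 3.89 to 4.74 in Lgr5-high arrays, while the receptor Flt3 was at 4.24 to 4.44 and 4.18 to 4.78. Of 11 macrophage and monocyte genes 0 passed (median -0.09, list mean 4.64 to 4.84 and 4.50 to 4.92), and 8 of the 11 differences were negative. Over all genes 61.5% of differences were negative, which applies to both of these lists. The receptor Csf1r read 4.13 to 4.61 in Flattop and 4.23 to 4.70 in Lgr5-high arrays, Adgre1 3.94 to 4.06 and 4.05 to 4.67, and the complement gene C1qa 5.11 to 5.44 and 5.01 to 5.84. Both means lay under 4.94 for 6 of the 9 dendritic cell genes, all but Ccr7, Cd209a and Siglech, and for 8 of the 11 macrophage and monocyte genes, all but C1qa, Cd68 and Cx3cr1. At an unadjusted p under 0.05 the 3 lists held 1, 0 and 0 higher and 0, 2 and 2 lower genes by limma, where 5.97% of all genes were higher and 3.8% lower. The lower dendritic cell genes, named after their values were seen, were the chemokine receptors Xcr1 (-0.66, adjusted p = 0.322) and Ccr7 (-0.62, adjusted p = 0.265) in limma. The lower macrophage and monocyte genes were Adgre1 (-0.32, limma adjusted p = 0.485) and the chemokine receptor Cx3cr1 (-0.55, adjusted p = 0.348), and the higher B cell gene was Cd79b (0.65, adjusted p = 0.252). These lower genes were picked by their p, and 1 dendritic cell and 3 macrophage and monocyte differences were positive. The part of these cells in the class II values was not tested. Centred on the groups, the means of the 3 lists correlated with the mean of the 4 coordinated members at -0.65, -0.41 and -0.45. The same measure was -0.52 for the 5 other class II chains and editors, which were also dim, and 0.44 for class I genes, and what these values rest on was not tested.

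T cell and intraepithelial lymphocyte genes rose in the same Flattop arrays. Of 10 measured, 9 rose in Flattop by limma, with a median difference of 4.96, and Cd3e, a T cell receptor component, rose by 5.30 (SE 0.51, adjusted p = 0.000448). Within Flattop the list mean was 7.93, 8.47, 10.24 and 9.61 in replicates 1 to 4. The mean of the 4 coordinated class II members was 6.51, 5.03, 6.58 and 5.07, also highest in replicate 3 but next highest in replicate 1. Ciita (5.07, 5.06, 6.35 and 5.70) and H2-DMa (4.89, 4.67, 5.17 and 5.08) were highest in replicate 3 and then 4, like the T cell list. H2-DMb1 was highest in replicate 4 (3.603) and then 3 (3.600). The part of T cells in the class II values was not tested. Of 8 mast cell and eosinophil genes 2 rose, the proteases Mcpt1 (5.08, adjusted p = 1.0e-06) and Mcpt2 (3.22, adjusted p = 0.00465) in limma. The rest of that list did not pass: Cpa3 (0.34), Fcer1a (0.30) and Siglecf (0.48) were positive, and Ms4a2 (-0.002), Epx (-0.22) and Prg2 (-0.09) negative. Over all genes 0.902% passed as higher, which applies to each list of this paragraph. Of 6 group 3 innate lymphoid genes 1 rose, Kit (1.002, limma adjusted p = 0.0216), a receptor that other cells carry too. The mean of that list correlated with the mean of the 4 class II members at 0.63 over the 10 centred arrays, and its part in the class II values was not tested. Epithelial genes were high in both groups, except Krt20, whose Lgr5-high mean was 5.31. The adhesion protein Epcam was at 10.78 to 10.92 in Flattop and 10.69 to 10.99 in Lgr5-high arrays. Of 10 epithelial genes 1 rose, the keratin Krt20 of mature cells (4.48, limma adjusted p = 0.00247). The labelled markers Lgr5 and Cfap126 did not pass (-1.10 and 0.43, limma adjusted p = 0.533 and 0.678).

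The genes most like the class II chains were taken as the 8 named genes of highest Pearson correlation with the mean of H2-Aa, H2-Ab1, H2-Eb1 and Cd74/Mir5107, each array centred on its group mean. They were Ltv1 (r = 0.92), Abcb8 (0.92), Usp16 (0.89), Ppie (0.89), Atp6ap1 (0.89), Ppp1r2 (0.88), Dusp7 (0.87) and Iqgap2 (0.87), over 10 arrays. None of the 8 belongs to the pathway lists. No other gene was as alike as Cd74/Mir5107 (0.95), while 3 were at least as alike as H2-Ab1 (0.89), 6 as H2-Aa (0.87) and 20 as H2-Eb1 (0.84), although these 4 members are part of the mean and the other genes are not. Iqgap2, a cytoskeletal scaffold, was higher in Flattop (1.53, limma adjusted p = 0.0319). The other 7 did not pass.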

How the data were processed

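RNA of sorted cells was amplified, biotin labelled and hybridised to 10 arrays, per the labels' protocols. The authors deposited log2 intensities per probe set, made by RMA in oligo 1.38.0 per the submitters' processing notes. Their order and filters are not stated there. Among the 41345 probe sets, 23521 had 1 gene symbol, 1814 several and 16010 were not listed. Of these, 23328 were matched to RefSeq of GRCm38.p6 through Entrez numbers and 0 symbols changed. Per gene, the probe set with the highest mean over the arrays was used, and the Cd74/Mir5107 probe set was kept as a further row because no other listed Cd74. It stands for Cd74 in the likeness rule. No dim gene was left out. Array medians were 4.56 to 4.77, and precision is limited by the number of arrays. No arrays were identical (Pearson correlations 0.825 to 0.941).

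Groups were compared with limma 3.58.1 (lmFit, eBayes) in R 4.3.3, two-sided, over all 22181 rows at once. The fit was also tested on simulated normal data with the means of the 22181 rows and the SDs that limma moderates across genes. Genes picked at random were changed, and 56.0% of those raised or lowered by 1 and 98.0% of those raised by 2 were recovered. A lowering by 2 was not simulated. These shares are for genes of usual spread and do not carry over to H2-Ab1 and Cd74/Mir5107, whose SDs were far larger. The members and the 14 gene lists were chosen with earlier results of these data known. Named genes were the members, up to 4 genes past the threshold in each list, fixed defining markers, Lgr5, Cfap126 and the 8 genes most like the members. Alternatives were another quantile normalisation, median centring, removal of genes under the 40th percentile, other variance priors, array weights, blocks for replicate number and title range, each title range alone, other uses of probe sets, each array left out, a threshold of 0.1 and a 2-fold minimum. Plots were drawn with matplotlib 3.10.9.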

Additional observations from a re-analysis of the deposited data

How the results depend on the processing

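No member passed the threshold under any of the 23 alternatives, and 154 of 160 differences kept their direction. That count includes settings that left a member's difference as it was, so its direction could not change there. These were the removal of dim genes, the other variance priors, the title range block, the other uses of probe sets, the threshold of 0.1 and the 2-fold minimum. H2-DMb1 turned to 0.051 after another quantile normalisation and to 0.091 within titles 38 to 46, where Ciita was at 0.13 and H2-DMa at 0.067. It was not among the genes kept when dim genes were left out. With 1 array left out, the H2-DMb1 difference ran from -0.072 to 0.012, H2-Ab1 from -2.23 to -1.29, Cd74/Mir5107 from -1.74 to -0.47, H2-Aa from -0.82 to -0.39, H2-Eb1 from -0.69 to -0.40, Ciita from -0.62 to -0.18 and H2-DMa from -0.17 to -0.0045. H2-DMb1 was above 0 without Lgr5-high replicate 2 (0.012) and without Flattop replicate 2 (0.0062). The smallest adjusted p of H2-Ab1 over the alternatives was 0.135 and the largest 0.747.

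The genes called over the whole table numbered 77 within titles 1 to 8, 85 within titles 38 to 46, 311 at a threshold of 0.1 and 123 to 215 with 1 array left out (123 without Flattop replicate 2, 132 without Lgr5-high replicate 4). With a replicate block over replicates 1 to 4, 56 genes passed and 0 members (H2-Ab1 at -1.47, adjusted p = 0.590). Correlations between the deviations of same-numbered samples ran from -0.213 to 0.284. They are too few to tell whether the numbers pair the samples. The cause of these changes was not tested. Without detection calls, signal over background is unknown, which limits H2-Aa, H2-Eb1, H2-DMa and H2-DMb1, whose means lay near or under the median of all gene values.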
